A study of Mus musculus with 9 samples.

Results

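The miR-26 and miR-101 families were followed as 7 mature arms in the tibialis anterior (TA) muscle of control and tumor-bearing mice. The arms are mmu-miR-26a-5p, mmu-miR-26a-2-3p, mmu-miR-26b-5p, mmu-miR-26b-3p, mmu-miR-101a-3p, mmu-miR-101a-5p and mmu-miR-101b-3p. They were taken by name from the 1915 mature miRNAs that each count table lists, and all 7 were among the 304 expressed miRNAs, defined as those that exceeded 32 counts somewhere among the libraries. The control group was 4 mice injected with PBS (C1 to C4). The LLC group was 5 mice (L1, L2, L3, L5 and L6) that carried subcutaneous tumors of Lewis Lung Carcinoma, a mouse lung carcinoma cell line, with 750000 cells injected per flank 22 days before the muscle was taken. The sample labels give C57BL/6J mice of 10 weeks, whereas the series description gives C57BL/10 males of 8 weeks. The whole TA muscle was used, a largely fast-twitch muscle that also holds vessels, blood and connective tissue, so fewer cells of a type and less miRNA per cell cannot be told apart in these libraries.

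A miRNA hairpin is cut into a 5p and a 3p arm, and 1 of them, the guide, usually stays in the silencing complex while the other, the passenger, is mostly lost. The guide finds its mRNA targets through the seed, its bases 2 to 8. For miR-26a and miR-26b the guide is the 5p arm, and for miR-101a and miR-101b it is the 3p arm. Both families are known to repress Ezh2, the histone methyltransferase of the Polycomb complex that keeps muscle genes silent in dividing myoblasts, and both accumulate when myoblasts differentiate. miR-26a is also known to repress Smad1 and Smad4, which carry the TGF-beta and BMP signals that hold back myogenesis.

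The mature sequences were read from RefSeq on GRCm38.p6, which lists all 7 arms. They are shown 5′ to 3′ with the seed in capitals, because the seed decides which arms can share targets. The guides come first, then the passengers.
miR-26a-5p: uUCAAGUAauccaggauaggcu
miR-26b-5p: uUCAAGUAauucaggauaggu
miR-101a-3p: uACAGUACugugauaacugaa
miR-101b-3p: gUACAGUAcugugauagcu
miR-26a-2-3p: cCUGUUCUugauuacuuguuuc
miR-26b-3p: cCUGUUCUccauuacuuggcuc
miR-101a-5p: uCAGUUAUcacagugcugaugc

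The miR-26 guides have the same seed, and over the 21 positions that both possess, counted from the 5′ end, they differ by C11U and C21U (the base of miR-26a-5p first). Their passengers miR-26a-2-3p and miR-26b-3p also share a seed with each other and differ at 4 of 22 positions. The miR-101 guides are listed in different frames. The entry for miR-101b-3p starts 1 base earlier than miR-101a-3p, so its bases 2 to 8 are shifted by 1 position against those of miR-101a-3p. No other miRNA of the tables with more than 0 counts shares bases 2 to 8 with an arm of either family. On bases 2 to 7, miR-101a-3p matches 1 expressed miRNA, the red-cell miR-144-3p, which starts with uACAGUAU. On the same bases, miR-101b-3p matches miR-582-5p, which had 27 counts in all libraries together and was not expressed.

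The hairpin genes Mir26a-1, Mir26a-2, Mir26b, Mir101a and Mir101b give the 7 arms, and each lies inside another gene of the same strand in GENCODE M21 on GRCm38. Mir26a-1 (chr9:119031796-119031885) lies in an intron of Ctdspl and Mir26b (chr1:74394310-74394394) in an intron of Ctdsp1. Mir26a-2 (chr10:126995530-126995613) lies in an intron of 1 of 3 Ctdsp2 transcripts and in an exon of the other 2. These hosts encode small C-terminal domain phosphatases. Mir101b (chr19:29135279-29135375) lies in an intron of Rcl1, and Mir101a, on the minus strand (chr4:101346945-101347027), in an exon of the long noncoding RNA E130102H24Rik. The pair of hairpins that give miR-26a-5p is shown with the mature arms in capitals, because the same 5p arm is read from both while their 3p arms can be told apart at 6 of 22 positions.
Mir26a-1: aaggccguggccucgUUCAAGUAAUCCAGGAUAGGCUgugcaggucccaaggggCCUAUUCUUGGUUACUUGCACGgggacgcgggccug
Mir26a-2: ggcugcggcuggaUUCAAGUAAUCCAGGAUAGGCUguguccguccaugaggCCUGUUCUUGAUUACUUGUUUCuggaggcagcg

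The counting bears on how the family members can be separated. The reads were aligned to the mature entries with no mismatch in their first 8 bases, and all best alignments were kept. C11U and C21U lie outside these bases, so a read could in principle be counted at both miR-26 guides. miR-26b-5p had 1.18 to 1.47 counts per 100 of miR-26a-5p in the 9 libraries. Double counting could therefore hold only a small share of the miR-26a-5p counts, whereas the counts set no such limit for miR-26b-5p, and how many of its counts are miR-26a reads was not tested. For miR-101 the limit is different. The stretch of the Mir101b hairpin that corresponds to miR-101a-3p is shown with its differing base in capitals.
Mir101b stretch: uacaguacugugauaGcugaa

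It differs from miR-101a-3p by A16G alone and runs 3 bases beyond the end of the miR-101b-3p entry. A read of the whole stretch therefore does not lie within the miR-101b-3p entry, and how many such reads were counted at miR-101a-3p was not tested. The levels of these arms below are those of the entries.

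Library totals were 4992339 to 7833161 counts, and 3 counts in a library corresponded to 0.383 to 0.601 CPM (counts per 1000000 counts of the library) before scaling, a floor that covers counting error only. CPM below are after TMM scaling, whose factors ran from 0.762 to 1.15 and were lowest in L5 and L1 (0.762 and 0.876). Of the 4 miRNAs listed as striated muscle markers, miR-133a-3p was the highest (20321 ± 3384 CPM in the control group, SD, n = 4). The entry of miR-1a-3p, which is known as one of the most abundant miRNAs of striated muscle, had only 20.9 ± 2.35 CPM in the same mice, from 62 to 171 counts per library over both groups. This gap, whose cause was not tested, limits how far the counts of an entry can be read as the level of its miRNA. miR-206-3p had 5 counts in all libraries together. The liver miR-122-5p had 2 counts and the neuronal miR-124-3p 13. The red-cell miRNAs (3 of 3 expressed) summed to 217 to 371 CPM of the library totals in control mice against 80.9 to 236 in LLC mice. In edgeR the log2-fold change was -0.76 for miR-451a (unadjusted p = 0.00201), -0.83 for miR-144-5p (0.00486) and -0.73 for miR-144-3p (0.0135). All 3 were thus lower at an unadjusted p of at most 0.05, against 34 of 304 expressed miRNAs (11.2%), and 0 of the 3 were called. The endothelial arms miR-126a-3p and miR-126a-5p (2 of 2) summed to 29895 to 32321 and 20180 to 32158 CPM on the same scale. Most of this sum was miR-126a-5p, with a log2-fold change of -0.09 after TMM scaling (unadjusted p = 0.526, edgeR). miR-126a-3p had -0.31 (unadjusted p = 0.0331, edgeR), and 0 of the 2 were called. The leukocyte list (4 of 4) summed to 609 to 852 and 436 to 710 CPM of the library totals, without TMM scaling, but the estimates of its members differed in sign. miR-150-5p, the most abundant, had a log2-fold change of -0.38 (unadjusted p = 0.00230, edgeR), while miR-223-3p had 0.70 (unadjusted p = 0.00154, edgeR), miR-142a-3p 0.32 and miR-142a-5p 0.02, and 0 of the 4 were called. The smooth muscle pair summed to 50061 to 62009 and 50313 to 83045 CPM of the library totals, nearly all of it miR-143-3p (log2-fold change 0.34), with miR-145a-5p at -0.10. The part of these lists in the values below was not tested.

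Within the families the levels were far apart. miR-26a-5p was the seventh most abundant of the 304 expressed miRNAs and held 3.31 to 6.79% of all counts in a library. miR-101a-3p and miR-26b-5p ranked 51 and 54, with means over the 9 mice of 786 and 667 CPM. miR-101b-3p ranked 126 (58.1 CPM), and the passengers miR-26b-3p, miR-101a-5p and miR-26a-2-3p ranked 169, 216 and 240 (24.9, 12.5 and 8.61 CPM). In each of the 9 libraries miR-26a-5p had 45.1 to 87.9 times the counts of miR-101a-3p, the next arm in the order. Neighbours in this order were not always apart: miR-101a-3p was above miR-26b-5p in 7 of 9 libraries and miR-101a-5p above miR-26a-2-3p in 7 of 9, while the other steps held in 9 of 9. These arms are 19 to 22 bases long, so no length correction was made, and differences in adapter ligation between sequences were not tested.

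**Figure D1:**
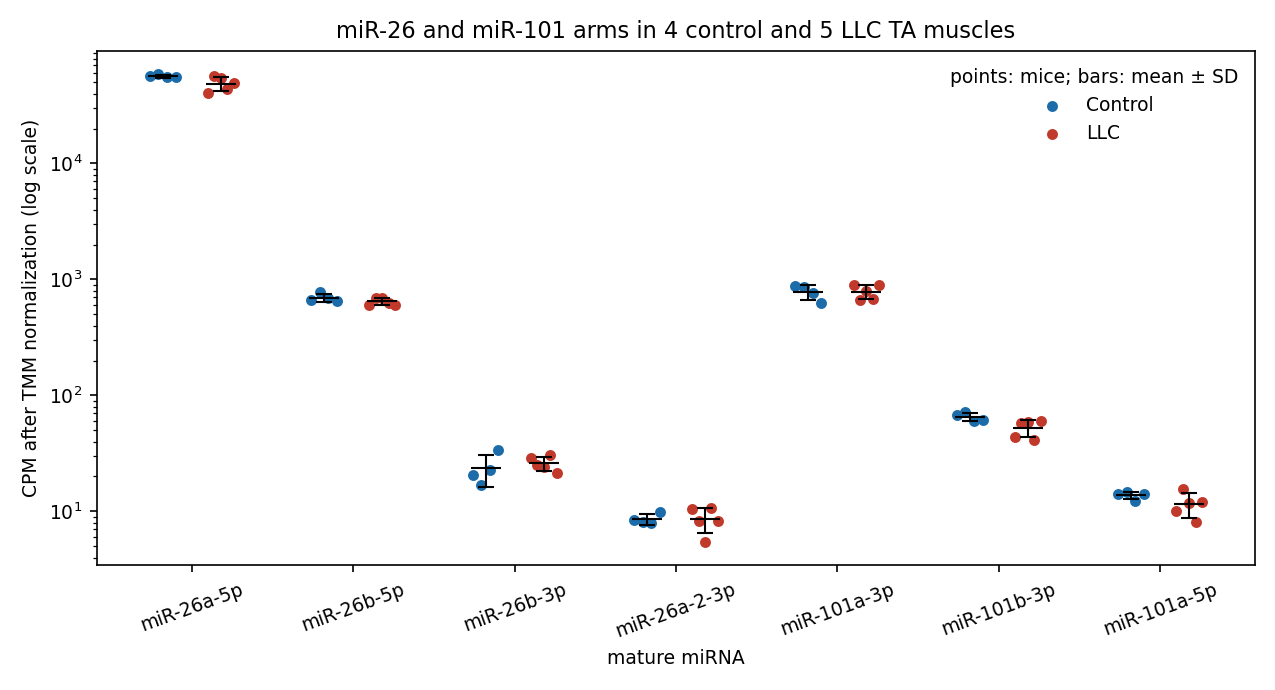
CPM after TMM normalization (log axis) of the 7 arms in each mouse, with control mice in blue and LLC mice in red; the black bars are the group mean ± SD (n = 4 and n = 5). miR-26a-5p lies between 40655 and 58907 CPM, miR-101a-3p and miR-26b-5p between 599 and 901 CPM, and the 3 passengers between 5.45 and 33.6 CPM, and the control and LLC mice overlap for each arm.

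The comparison asked whether either family differed between LLC and control muscle. None of the 7 arms was called in edgeR's quasi-likelihood test (Benjamini-Hochberg adjusted p of at most 0.05 over all 304 miRNAs with the fold change 1.5 or more), and the same was true of all expressed miRNAs (0 of 304, 0%). DESeq2 under the same rule called 0 of the 7 arms and 7 of the 304. At an unadjusted p of at most 0.05, 1 of the 7 arms passed, miR-101b-3p, and it was lower in the LLC group. Over all expressed miRNAs 50 of 304 passed at this level (16.4%), 34 of them lower in the LLC group (11.2%), so 1 in 7 is near the background. The control and LLC mice were fully apart in CPM for 0 of the 7 arms, against 18 of 304 (5.92%). The median log2-fold change of the 7 arms was -0.11 and that of all expressed miRNAs -0.02. With library totals alone in place of TMM these medians were -0.25 and -0.17. The 95% interval of the fold change lay within 1.5-fold in either direction for 5 of the 7 arms, with miR-101a-5p and miR-101b-3p as the exceptions.

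**Figure D2:**
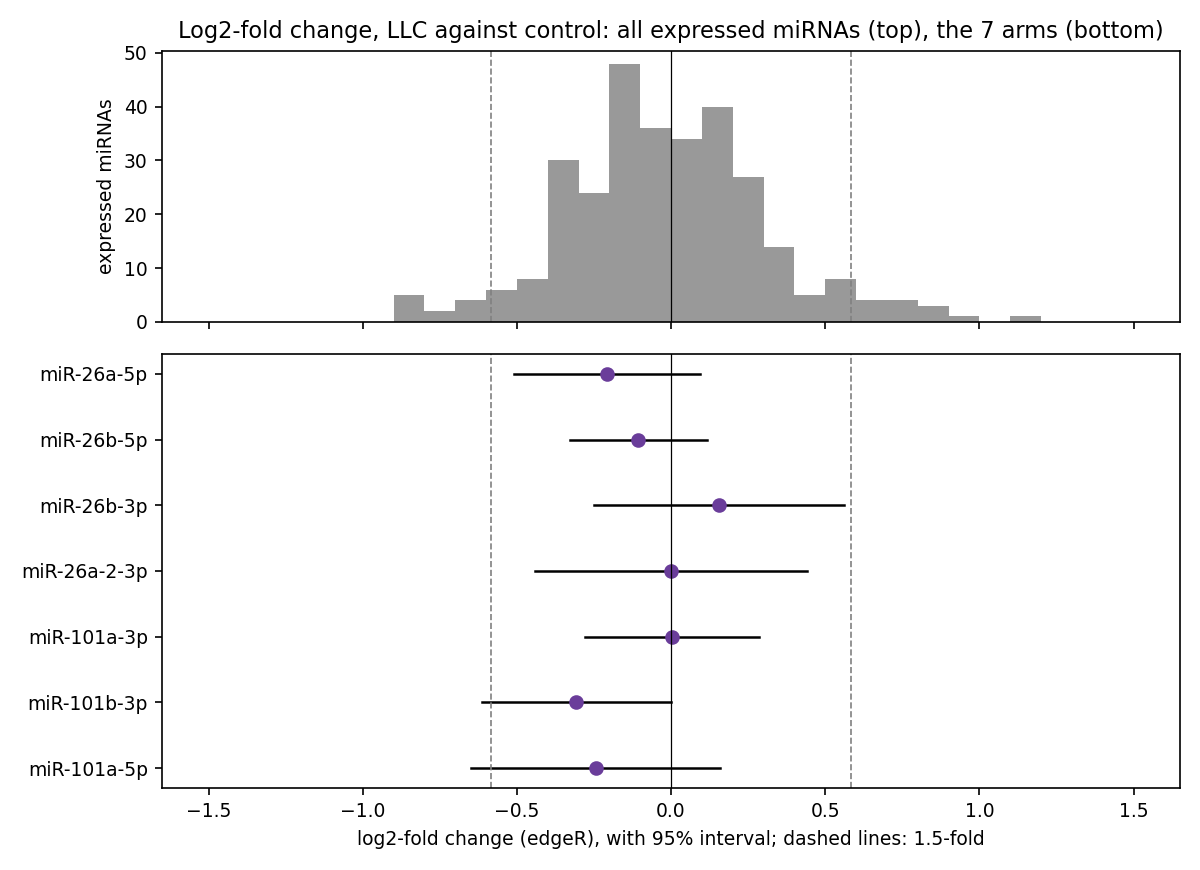
Histogram of the log2-fold change (LLC against control, edgeR) of the 304 expressed miRNAs, above the estimates of the 7 arms with their 95% intervals; the dashed lines mark 1.5-fold. The arms lie between -0.31 and 0.16, and the interval of miR-101b-3p alone ends below 0.

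miR-26a-5p, the main guide of its family, had 56290, 58907, 55651 and 55202 CPM in C1 to C4. In the LLC group it had 40655 CPM in L1, 56286 in L2, 54478 in L3, 43525 in L5 and 49543 in L6. After TMM scaling the control mice were close together (coefficient of variation 2.93%) and the LLC mice were spread out (13.8%). L1 and L5 were the lowest and L2 was within the control range. By share of the library total, the control mice were less close, from 5.30% in C3 to 6.79% in C2. On that scale L1 (3.56%) and L5 (3.31%) were below every control mouse. L2 (5.56%), L3 (5.85%) and L6 (5.52%) were within the control range. The mean was 56513 ± 1657 CPM (SD, n = 4) for the control mice and 48897 ± 6763 CPM (SD, n = 5) for the LLC mice. In edgeR the log2-fold change came to -0.21, with a standard error of 0.142 and an adjusted p = 0.417, and the 95% interval of the fold change was 0.702 to 1.07. Although 4 of the 5 LLC mice lay below every control mouse after TMM scaling, the two-sided exact permutation test over the 126 splits gave an unadjusted p = 0.0714. With CPM from library totals the same exact permutation test gave an unadjusted p = 0.151. Without L1 and L5, both chosen after the data were seen for their low TMM factors, the log2-fold change was -0.05.

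miR-26b-5p, with the same seed, had 665, 776, 689 and 649 CPM in C1 to C4. The LLC mice had 599 CPM in L1, 695 in L2, 697 in L3, 629 in L5 and 608 in L6. After TMM scaling L1, L5 and L6 were thus below every control mouse and the groups overlapped. By share of the library total, L6 (0.0677%) was above C3 (0.0656%) and C4 (0.0658%), and only L1 and L5 were below every control mouse. In edgeR the log2-fold change came to -0.11, with a standard error of 0.104 and an adjusted p = 0.575, with a 95% interval of the fold change from 0.797 to 1.08. The estimate was -0.03 without C2, -0.06 without L6, -0.03 without L1 and L5, and -0.07 with RLE factors. The exact permutation test (two-sided) gave an unadjusted p = 0.190. Together both guides summed to 57207 ± 1711 CPM for the control mice against 49543 ± 6803 CPM for the LLC mice, a sum set almost wholly by miR-26a-5p. Within a library, miR-26b-5p was 1.21 ± 0.0637% of the miR-26 guide counts for the control mice against 1.31 ± 0.116% for the LLC mice. The highest shares were those of L1 (1.45%) and L5 (1.42%), the mice with the lowest miR-26a-5p, and the difference did not pass the two-sided exact permutation test (p = 0.198, 0.413 after Benjamini-Hochberg adjustment over the 6 ratios tested). The difference of 0.101 percentage points was 0.0669 without L1 and 0.0186 without L1 and L5. The level and the share both include any miR-26a reads counted at the miR-26b-5p entry.

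The miR-26 passengers were not low in L1 and L5, where miR-26a-5p was lowest. miR-26a-2-3p, from Mir26a-2, had 8.40, 8.08, 7.97 and 9.88 CPM in C1 to C4, and 10.5 CPM in L1, 8.31 in L2, 5.45 in L3, 10.7 in L5 and 8.25 in L6. After TMM scaling its highest mice were thus L5 and L1 and its lowest was L3. As shares of the library total, C4 (0.00100%) and C1 (0.000958%) were the highest instead. On that scale L1 had 0.000917% and L5 0.000812%, and L3 was again the lowest (0.000584%). The group means were 8.58 ± 0.884 and 8.63 ± 2.11 CPM, based on 41 to 72 counts, and edgeR gave a log2-fold change of -0.00051 with a standard error of 0.207 and an adjusted p = 0.998. The sign of a value this close to 0 changed with the scaling (0.05 with RLE factors). The 3p arm of the other hairpin, miR-26a-1-3p, had 1 to 8 counts per library and 25 in all, below the expression rule, against 498 for miR-26a-2-3p. For every 1000 counts of miR-26a-5p there were 0.152 ± 0.0186 counts of miR-26a-2-3p for the control mice against 0.183 ± 0.0667 for the LLC mice. L1 (0.258) and L5 (0.245) were above every control mouse and L3 (0.100) was below (two-sided exact permutation test, p = 0.381, adjusted 0.413). The difference of 0.0312 counts per 1000 was 0.0127 without L1, 0.0158 without L5 and 0.0520 without L3, and it changed sign to -0.0141 without both L1 and L5.

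miR-26b-3p had 20.6, 17.0, 22.8 and 33.6 CPM in C1 to C4, and 29.0 CPM in L1, 25.1 in L2, 24.3 in L3, 30.4 in L5 and 21.6 in L6. All LLC mice lay inside the control range, whose upper end was set by C4. In edgeR the log2-fold change came to 0.16, with a standard error of 0.191 and an adjusted p = 0.651, the only arm of the 7 with an estimate above 0.01, and the 95% interval of the fold change was 0.841 to 1.48. It moved to 0.39 when C4 was left out (adjusted p = 0.320, edgeR) and to 0.04 when C2 was left out. It was 0.10 without C1 or without L5, 0.24 without L6, 0.05 without both L1 and L5, 0.38 with the replicate block and 0.0026 with library totals alone. The ratio to its own guide was 34.4 ± 12.5 counts of miR-26b-3p per 1000 of miR-26b-5p for the control mice against 40.6 ± 7.09 for the LLC mice (exact permutation test, two-sided, p = 0.413). The difference of 6.22 was 11.98 without C4 (exact permutation p = 0.0714), 2.03 without C2 and 1.05 without L1 and L5. L1 and L5 had 48.5 and 48.3, the other 3 LLC mice 34.9 to 36.1, and the control mice 21.9 to 51.7.

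miR-101a-3p, the main miR-101 guide, had the most similar group means of the 4 guides. It had 875, 863, 771 and 628 CPM in C1 to C4, and 901 CPM in L1, 662 in L2, 797 in L3, 685 in L5 and 889 in L6. High and low mice occurred in both groups. After TMM scaling L1, lowest for miR-26a-5p, was highest here, just above L6 and C1. As a share of the library total, L1 (0.0790%) was below C1, C2, L3 and L6. On that scale miR-26a-5p was lowest in L5 (3.31%, against 3.56% in L1). The control mean was 784 ± 114 CPM (SD, n = 4), the LLC mean was 787 ± 112 CPM (SD, n = 5), edgeR gave a log2-fold change of 0.0043 with a standard error of 0.132 and an adjusted p = 0.996 and the 95% interval of the fold change was 0.825 to 1.22. With library totals alone the log2-fold change was -0.14, close to the -0.17 of the median miRNA under that scaling.

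miR-101b-3p had 67.6, 71.5, 60.4 and 60.9 CPM in C1 to C4. In the LLC group it had 43.7 CPM in L1, 58.0 in L2, 58.4 in L3, 41.7 in L5 and 60.8 in L6. After TMM scaling L1 and L5 were well below the other mice, L2 and L3 lay just under the lowest control mouse, and L6 was within the control range. By share of the library total, L1 (0.00383%) and L5 (0.00317%) were again the lowest. On that scale L3 (0.00627%) was above C3 (0.00575%) and C4 (0.00617%), and L2 (0.00573%) was just under C3. The means were 65.1 ± 5.41 CPM and 52.5 ± 9.06 CPM, based on 211 to 540 counts. The difference of -0.31 on the log2 scale (standard error 0.144) had an unadjusted p = 0.0495 and an adjusted p = 0.296 in edgeR, and a 95% interval of the fold change from 0.653 to 0.999. The two-sided exact permutation test gave an unadjusted p = 0.0714. Without L1 and L5 the log2-fold change was -0.11. The unadjusted p exceeded 0.05 when any of C1, C2, C3, L1 and L5 was left out, without both L1 and L5, and with RLE factors, library totals alone, no filter, at least 10 counts in every library, the replicate block or DESeq2. The estimate was negative in these fits and in the others run.

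The miR-101 guides were also set against each other within each library. miR-101b-3p made up 7.17, 7.65, 7.26 and 8.84% of the miR-101 guide counts in C1 to C4. In the LLC mice the share was 4.63% in L1, 8.06% in L2, 6.83% in L3, 5.74% in L5 and 6.40% in L6. In 4 of the 5 LLC mice it was below the lowest control share, with L2 inside the control range. The means were 7.73 ± 0.766% and 6.33 ± 1.27%, a difference of -1.40 percentage points that did not pass the two-sided exact permutation test (p = 0.103, adjusted 0.413). When L2 was left out the difference was -1.83 percentage points. The unadjusted p = 0.0286 is the smallest that 4 mice against 4 allow in this exact permutation test. L2 was the only LLC mouse not below every control share, so leaving it out fixed this p in advance. Without L1 and L5 the difference was -0.63 percentage points. The summed miR-101 guides had 849 ± 119 CPM for the control mice against 839 ± 113 CPM for the LLC mice. The 5p entry miR-101b-5p had 3 counts in all, in 3 libraries, and miR-101c, whose 19 bases lie within miR-101a-3p from position 2, had 7 counts in 4 libraries.

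miR-101a-5p, the passenger of Mir101a, had 14.1, 14.6, 12.2 and 14.03 CPM in C1 to C4, and 10.1 CPM in L1, 15.6 in L2, 11.8 in L3, 8.09 in L5 and 12.0 in L6. After TMM scaling L2 was the highest mouse of all and the other 4 LLC mice lay below every control mouse, L5 with 41 counts the lowest. This order depended on the scaling. By share of the library total, L2 (0.00154%) was below C1 (0.00161%) and C2 (0.00168%). L3 (0.00127%) and L6 (0.00134%) were above C3 (0.00116%), so that only L1 and L5 were below every control mouse. The means were 13.7 ± 1.03 and 11.5 ± 2.78 CPM and edgeR gave a log2-fold change of -0.24 with a standard error of 0.189 and an adjusted p = 0.486, the fold change lying between 0.638 and 1.12 at 95%. The estimate was -0.37 without L2, -0.15 without L5, -0.04 without L1 and L5, and -0.13 with the replicate block. The exact permutation test (two-sided) gave an unadjusted p = 0.190. Against its guide there were 17.8 ± 3.07 counts per 1000 of miR-101a-3p for the control mice against 15.01 ± 5.03 for the LLC mice. The ratio was lower than in every control mouse in L1, L3, L5 and L6 (11.2 to 14.8) and higher in L2 (23.6), with p = 0.381 in the two-sided exact permutation test. Without L2 the difference was -4.93 counts per 1000, with an unadjusted p = 0.0286, again the smallest this exact permutation test allows. In this ratio L2 was the only LLC mouse not below every control mouse, so leaving it out fixed this p in advance. The difference was -1.26 without C4, -1.83 without L1 and -0.45 without L1 and L5, against -2.78 with all mice.

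**Figure D3:**
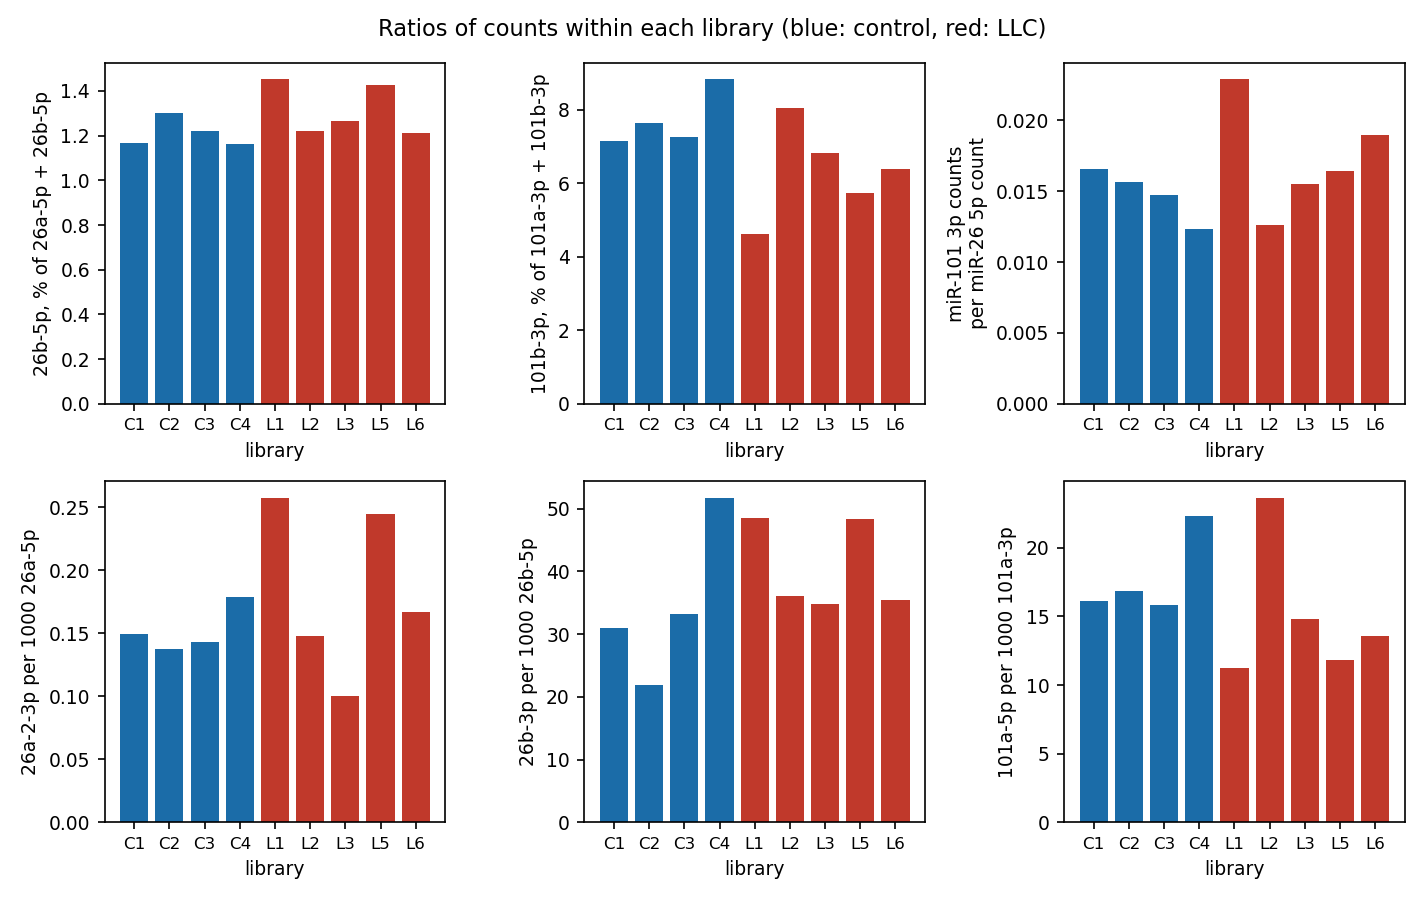
Each bar is 1 library (blue control, red LLC); the panels give the paralog shares in percent, the miR-101 guide counts per miR-26 guide count and the passenger counts per 1000 guide counts. L1 and L5 are the 2 highest libraries for the miR-26b-5p share and for miR-26a-2-3p per 1000 miR-26a-5p, and the 2 lowest for the miR-101b-3p share and for miR-101a-5p per 1000 miR-101a-3p.

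The balance between the families was measured as miR-101 guide counts per miR-26 guide count, which needs no scaling between libraries. It was 0.0166, 0.0157, 0.0148 and 0.0123 in C1 to C4, and 0.0229 in L1, 0.0126 in L2, 0.0155 in L3, 0.0164 in L5 and 0.0189 in L6. L1 and L6 were above all control mice and the others were within their range. The means were 0.0148 ± 0.00182 and 0.0173 ± 0.00387 (two-sided exact permutation test, p = 0.286, adjusted 0.413). The difference of 0.00246 was 0.00105 without L1, 0.00163 without C4 and 0.000866 without L1 and L5. None of the 6 ratios passed the threshold, and the smallest p that the splits of the 9 mice allow is 0.00794.

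Across the 9 mice the guides did not all vary together after TMM scaling, the only scaling for which r is given. On log2 CPM, miR-26a-5p and miR-26b-5p had Pearson's r = 0.79 (exact permutation p = 0.00724) and Spearman's rho = 0.77 (p = 0.0214), and r = 0.86 without L1 and L5, the mice farthest from the median of miR-26a-5p. miR-26a-5p and miR-101b-3p had r = 0.91 (exact permutation p = 0.00402) and rho = 0.73 (p = 0.0311), but r was 0.50 without L1 and L5. Leaving out the mice farthest from the median of miR-26a-5p narrows its range, which can lower r by itself. How far this relation rests on L1 and L5 was therefore not tested. Between miR-26a-5p and miR-101a-3p r was -0.16 (exact permutation p = 0.680) and rho -0.22 (p = 0.581), and r was -0.20 without the same mice. As shares of the library total, however, L5 was the lowest for both arms (3.31% and 0.0521%). C1 and C2 were the highest for both (6.42 and 6.79%, and 0.0998 and 0.0995%). This r therefore holds for TMM-scaled values, and r of the shares was not taken. The guides of miR-101 had r = 0.18 with each other (exact permutation p = 0.640) and rho = 0.12 (p = 0.776), and r = 0.45 without C4 and L2. For miR-26b-5p, r was 0.66 with miR-101b-3p (exact permutation p = 0.0566; rho 0.40, p = 0.291) and -0.06 with miR-101a-3p (exact permutation p = 0.880; rho -0.33, p = 0.385). Without C2 and L1, the mice farthest from its median, these were 0.30 and -0.17. After Benjamini-Hochberg adjustment over the 6 pairs, the p-values of r were 0.0217 for the pairs of miR-26a-5p with miR-26b-5p and with miR-101b-3p, and those of rho were 0.0934 for both. With each group centred on its own mean, r was 0.72 and 0.85 for these pairs, and 0.25 for the miR-101 guides. Each group alone has fewer than 6 mice, so no r was taken within a group. All values of a mouse share its library, its total and its TMM factor, and the miR-26 guides may also share reads (as may the miR-101 guides), the part of which in their r was not tested.

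**Figure D4:**
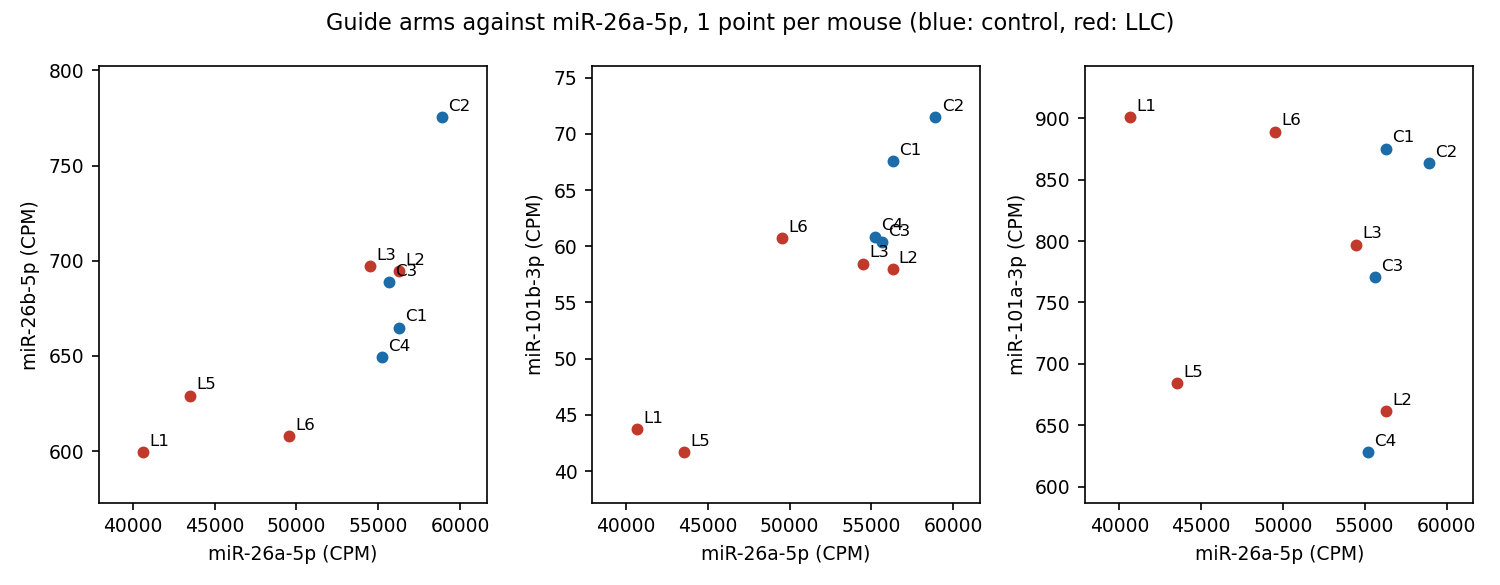
CPM of miR-26b-5p, miR-101b-3p and miR-101a-3p (y axes, linear) against that of miR-26a-5p (x axes, linear), 1 labelled point per mouse, blue for control and red for LLC. L1 and L5 lie at the low end of miR-26a-5p in each panel, are the lowest 2 for miR-101b-3p, and lie apart from each other for miR-101a-3p (901 and 685 CPM).

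Among the 297 expressed miRNAs outside the families, those whose log2 CPM followed miR-26a-5p most closely over the 9 libraries were miR-148b-5p (r = 0.96, rho = 0.87), miR-133a-5p (r = 0.95, rho = 0.90) and miR-29c-3p (r = 0.95, rho = 0.85). Without L1 and L5 these r were 0.68, 0.76 and 0.74. For miR-101a-3p they were miR-194-5p (r = 0.98, rho = 0.93), miR-30d-5p (r = 0.91, rho = 0.72) and miR-103-3p (r = 0.91, rho = 0.90), and without C4 and L2 r was 0.95, 0.78 and 0.82. The lists do not share a miRNA. These miRNAs were picked as the highest of 297, so their r are a description and were not tested. Of the 6, none had an adjusted p below 0.296 between the groups (edgeR), and miR-194-5p, like miR-101a-3p, had nearly equal means (27.6 and 27.7 CPM).

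Other miRNAs with related roles were described from lists that were chosen with earlier results of these data known. Of 7 other miRNAs known to repress Ezh2, 4 were expressed and 0 were called, 2 with a higher and 2 with a lower estimate (median log2-fold change 0.03, against -0.02 for all expressed miRNAs). These were miR-214-3p (log2-fold change -0.26, adjusted p = 0.335), which acts with Ezh2 in a feedback loop in myoblasts, miR-138-5p (-0.14, adjusted p = 0.643), miR-98-5p (0.22, adjusted p = 0.296) and let-7a-5p (0.20, adjusted p = 0.326), all from the edgeR test. At an unadjusted p of at most 0.05, 0 of the 4 passed. Of 14 other miRNAs of myogenic differentiation, 11 were expressed and 0 were called, 4 with a higher and 7 with a lower estimate (median log2-fold change -0.12). At the unadjusted level 2 of the 11 passed. miR-29b-3p was higher in the LLC group (0.73, adjusted p = 0.0812, edgeR) and miR-322-5p lower (-0.31, adjusted p = 0.296, edgeR), a share near the background of 16.4%. miR-144-3p, which shares bases 2 to 7 with miR-101a-3p, differed by -0.73 on the log2 scale in edgeR, with a standard error of 0.262 and an adjusted p = 0.214.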

How the data were processed

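Small RNA-seq of TA muscle was available from 4 control mice and 5 LLC mice. Reads had been mapped by the authors to miRBase version 21 with Bowtie (no mismatch in a seed of 8 bases, all alignments of the best stratum kept), and they deposited whole counts per mature miRNA for each library, unfiltered and not normalized. HTSeq, DESeq2 and FastQC are also named in the submitters' processing notes. Totals were 4992339 to 7833161 counts per library. Quality filtering and trimming are already in the values. A sixth LLC library and the mRNA data were not analysed here. Groups and mouse numbers came from the sample titles.

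The 304 miRNAs that exceeded 32 counts in any library were fitted with edgeR 4.0.16 in R 4.3.3 (TMM factors, quasi-likelihood test, no block), adjusting over the 304. Intervals are 95% intervals from the edgeR standard errors. Exact permutation tests used the difference of group means (of log2 CPM with prior count 2, or of a ratio of counts) over the 126 splits of the mice. Their p-values for single arms were not adjusted over the 7 arms. The 7 arms were named as given, with the 3 most similar expressed miRNAs for each main guide, the seed relatives and the lists in the text. Members and lists were chosen with earlier results of these data known. The edgeR script was tested on simulated data. Alternatives tried were RLE factors, library totals (alone or without the 5 most abundant miRNAs), no filter, at least 10 counts in every library, DESeq2 1.42.0, a replicate block, a prior count of 0.5, log2 ratios, each mouse left out, and, added after seeing the data, L1 and L5 left out. Same-numbered mice are different animals, and their deviations from the group means had correlations of -0.25 to -0.09, so they were not treated as pairs. No pair of libraries in a group agreed within sampling noise (lowest chi-square per degree of freedom 124). Figures were drawn with matplotlib 3.10.9.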

Additional observations from a re-analysis of the deposited data

Results flagged for a closer look

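Dixon's test for a stray sample was applied to the 7 arms and 6 ratios in each group, 26 groups of values in all, of which chance flags about 1 in 20. Both values it marked belong to 1 ratio, the counts of miR-101a-5p per 1000 of miR-101a-3p: C4, with 22.3, was far above the other 3 control mice (15.9 to 16.9), and L2, with 23.6, far above the other 4 LLC mice (11.2 to 14.8). After TMM scaling, the 5p arm in both mice was near or above the control mean (14.03 and 15.6 CPM), and the 3p arm was the lowest of its group (628 and 662 CPM). By share of the library total, the 3p arm was again lowest of the control mice in C4 (0.0637%). Among the LLC mice it was lowest in L5 (0.0521%), below L2 (0.0653%).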

How the results depend on the processing

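The number of arms called was 0 under each alternative, and the adjusted p of their fold changes never reached 0.05. Of 119 alternative fold changes, 104 kept their sign. The 15 that did not belong to miR-101a-3p and miR-26a-2-3p, whose estimates are close to 0. For miR-101a-3p the log2-fold change was -0.14 with library totals alone (-0.15 as a mean log2 CPM difference), -0.0229 with totals without the 5 most abundant miRNAs, -0.10 with the replicate block, and -0.0696 to 0.0715 with each mouse left out. For miR-26a-2-3p it was 0.0454 with RLE factors, 0.0457 with DESeq2, 0.0427 with no filter, 0.0181 with at least 10 counts in every library, and -0.0834 to 0.15 with each mouse left out. The number of arms at an unadjusted p of at most 0.05 was 0 with RLE factors, library totals, no filter, at least 10 counts in every library, DESeq2, the replicate block and without L1 and L5, and 0 to 1 with each mouse left out (0 without C1, C2, C3, L1 or L5). The cause was not tested. Over all miRNAs tested, 22 were called with no filter, 7 with DESeq2, 1 without L1 and L5, and 0 to 8 with each mouse left out (1 without L1, 8 without L3).

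The summed miR-26 guides differed by -0.37 on the log2 scale with library totals alone, against -0.22 with TMM, under a scaling that moved the median of all miRNAs to -0.17. With each mouse left out, the difference in the miR-101b-3p share ran from -1.83 to -0.97 percentage points, and that in miR-101a-5p per 1000 miR-101a-3p from -4.93 to -1.26. The difference in miR-26a-2-3p per 1000 miR-26a-5p was -0.0141 without L1 and L5. The other ratios kept their direction and side of the threshold, but single mice moved several by over 1.5 times, as given beside them. With 41 to 72 counts per library for miR-26a-2-3p and 41 to 110 for miR-101a-5p, the relative counting error is largest for these passengers.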
